A study of Mus musculus with 6 samples.

Results

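The genes examined here are 10 transcripts of the AP-1 and immediate early response in primary mouse renal fibroblasts. They were chosen by symbol, as the rows of the deposited table named Fos, Fosb, Fosl1, Fosl2, Jun, Junb, Jund, Egr1, Ier3 and Dusp1, and they are 10 of the 34745 genes listed. All of them passed the filter on low counts, which kept 13088 genes for testing.

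AP-1 is a dimeric transcription factor built from a Fos and a Jun protein, or from a pair of Jun proteins, that binds DNA through a basic leucine zipper. Immediate early genes are transcribed within minutes of a stimulus without new protein synthesis, mostly downstream of mitogen-activated protein kinases (MAPK) and serum response factor (SRF), and many of their transcripts decay quickly. In fibroblasts these genes are known for the response to serum, growth factors, cytokines and wounding, and AP-1 for the control of matrix-degrading proteases.

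To examine how Th17 cells act on renal fibroblasts, the study sequenced total RNA from fibroblasts of WT mice, grown out of enzyme-digested kidney in a complete fibroblast medium. There were 3 libraries of fibroblasts cultured alone, with treatment given as none, and 3 libraries of fibroblasts collected after 24 h beneath a 0.4 μm transwell insert holding Th17 cells, which was added once the fibroblasts had attached for 6 h. The Th17 cells were CD4+ T cells differentiated with antibodies to CD3 and CD28, interleukins 1β, 6 and 23 and an antibody to interferon-γ, so a cocultured library carries the effect of everything these cells release or consume. The sources used here gave neither age nor what separates replicate libraries (a well, a culture or an animal), nor whether wells of lone fibroblasts held an empty insert. SD, SE and p therefore describe the spread between these libraries, which may be technical. Because the response was sampled once, at 24 h, the values say nothing of the first hours after the Th17 cells were added.

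Library totals ranged from 12050529 to 13209581 counts. Fibroblast genes were abundant in every library, with Col1a1 at a mean of 15072 normalised CPM (counts scaled to a common library total) alone and 6228 CPM in coculture, and 13 of 16 fibroblast markers fell while 1 rose, their summed level going from between 40731 and 42538 CPM to between 18079 and 20365 CPM. Of 18 T cell markers, 8 were at 0 in all 6 libraries, among them Cd3d, Il17a and Il17f, and the summed level was 8.38 to 9.98 CPM alone and 4.79 to 5.58 CPM in coculture. The 16 macrophage markers summed to 61.7 to 66.3 CPM alone and 20.4 to 21.8 CPM in coculture, where Adgre1 was at 0, and the 11 epithelial markers to 19.19 to 21.05 CPM and 3.58 to 4.56 CPM. The summed level of the 10 endothelial markers rose, from between 122.9 and 131.0 CPM to between 272.4 and 308.8 CPM. Nearly all of this sum was Flt1, at 112.8 to 121.1 CPM alone and 267.2 to 302.9 CPM in coculture (log2 fold change 1.31). Of the 4 endothelial markers tested, 1 rose and 1 fell. Kdr fell to 2 counts or fewer per library, and Tie1, Emcn and Cldn5 were at 0 in all libraries. The part of these other cells in the results below was not tested. In bulk RNA, fewer cells of a type and less RNA per cell cannot be told apart.

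After 24 h with Th17 cells, 4 of the 10 transcripts fell, namely Fosb, Jund, Egr1 and Dusp1, and 2 rose, namely Fosl2 and Ier3. Fos, Fosl1, Jun and Junb did not pass the test. Every change was small. The strongest was Egr1, down by 33.4%, and none of the 10 exceeded 2-fold. A gene passed with an adjusted p below 0.05 in edgeR's quasi-likelihood test, and 6 of 10 members did so against 37.1% of all tested genes. By direction, 4 members fell against 20% of tested genes and 2 rose against 17.1%. Adding the study's requirement of a fold change above 2 left 0 members, against 11.6% of tested genes (3.87% higher and 7.78% lower). Changes below 2-fold were the rule in the whole table too, at 87.7% of tested genes. DESeq2 and limma also placed 0 members past that threshold, and 7 members had an unadjusted edgeR p below 0.05. The 95% intervals of all 10 fold changes, unadjusted for the number of genes, lay inside a 2-fold change in either direction. The median log2 fold change of the members was -0.27, beside 0.00 over all tested genes, and the median of its absolute size was 0.29 beside 0.26. The groups did not overlap in normalised CPM for 7 members, the exceptions being Fos, Fosl1 and Junb, against 50.4% of tested genes.

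**Figure D1:**
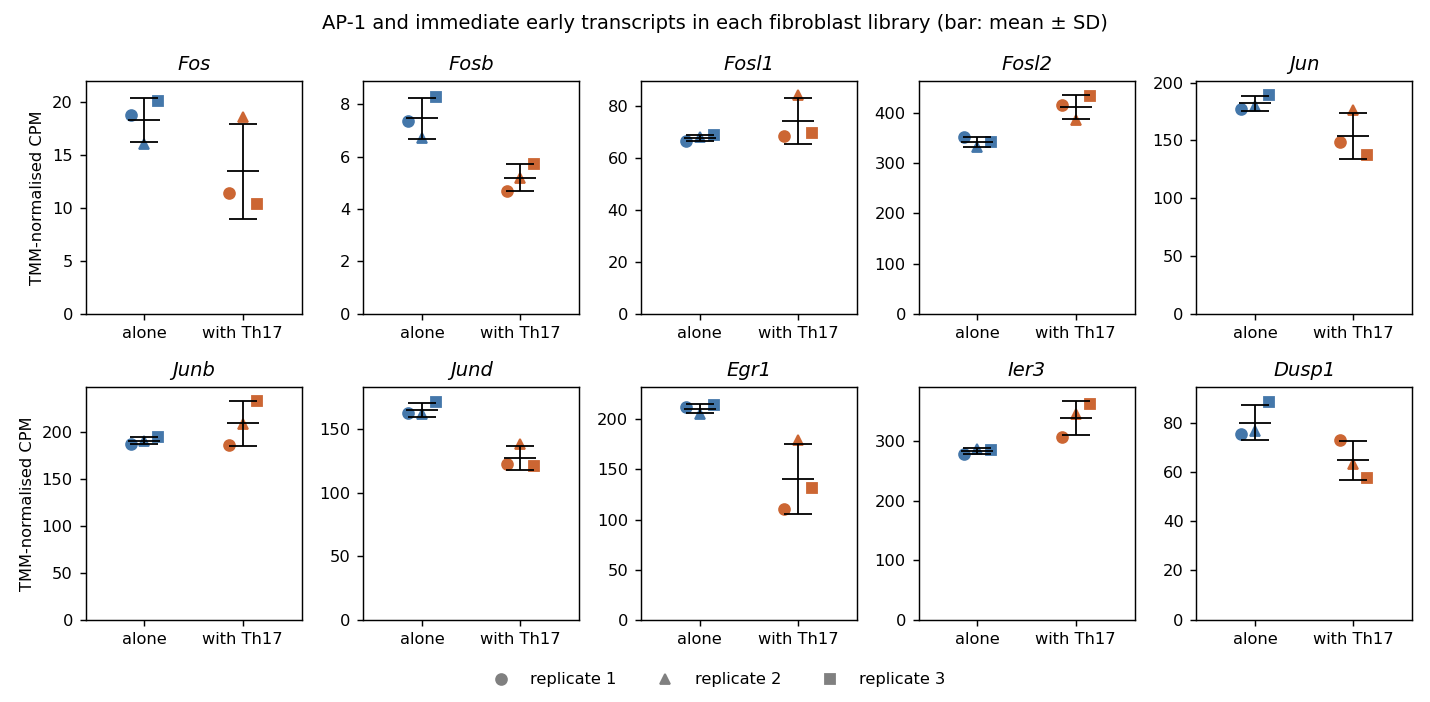
Normalised CPM (linear axis from 0) of each of the 10 transcripts in the 3 libraries cultured alone (blue) and the 3 cocultured with Th17 cells (orange), with marker shape giving the replicate and bars the mean ± SD. Fosl2 and Ier3 sit higher in all 3 cocultured libraries, Fosb, Jun, Jund, Egr1 and Dusp1 sit lower, and the groups overlap for Fos, Fosl1 and Junb.

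The proximal promoters of the members that changed are given because the members share a family and a way of induction, and AP-1 genes are known to carry sites for AP-1 and ATF factors themselves. RefSeq (GRCm38.p6) held a promoter window, running from 250 bases before to 50 bases after the annotated start, for 8 of the 10 members; Fosl1 and Egr1 had no entry. The windows of the 5 changed members with an entry are printed on the coding strand, 5′ to 3′, with capitals at each forward match to TGACG or TGACGTCA (cores of the cAMP response element, the ATF and CREB site). Fosb, Jund and Dusp1 fell and lie at chr7:19309996-19310295 (minus strand), chr8:70697489-70697788 (plus strand) and chr17:26508423-26508722 (minus strand), and Fosl2 and Ier3 rose and lie at chr5:32136222-32136521 (plus strand) and chr17:35821463-35821762 (plus strand).
Fosb: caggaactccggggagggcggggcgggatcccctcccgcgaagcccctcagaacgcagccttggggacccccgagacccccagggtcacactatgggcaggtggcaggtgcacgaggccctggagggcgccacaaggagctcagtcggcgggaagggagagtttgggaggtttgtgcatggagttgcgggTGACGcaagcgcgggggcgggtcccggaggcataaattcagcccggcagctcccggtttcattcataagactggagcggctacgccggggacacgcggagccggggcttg
Jund: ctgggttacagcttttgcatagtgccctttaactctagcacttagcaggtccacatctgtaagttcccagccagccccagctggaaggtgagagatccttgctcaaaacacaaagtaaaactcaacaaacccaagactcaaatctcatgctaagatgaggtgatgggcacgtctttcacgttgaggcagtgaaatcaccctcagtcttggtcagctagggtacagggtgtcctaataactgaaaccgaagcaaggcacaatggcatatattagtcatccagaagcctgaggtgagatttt
Dusp1: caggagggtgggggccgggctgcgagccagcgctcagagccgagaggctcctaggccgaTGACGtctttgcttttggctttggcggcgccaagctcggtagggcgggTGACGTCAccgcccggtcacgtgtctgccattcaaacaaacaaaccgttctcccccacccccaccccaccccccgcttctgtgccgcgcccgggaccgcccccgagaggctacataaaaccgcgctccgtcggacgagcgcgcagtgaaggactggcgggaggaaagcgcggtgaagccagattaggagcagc
Fosl2: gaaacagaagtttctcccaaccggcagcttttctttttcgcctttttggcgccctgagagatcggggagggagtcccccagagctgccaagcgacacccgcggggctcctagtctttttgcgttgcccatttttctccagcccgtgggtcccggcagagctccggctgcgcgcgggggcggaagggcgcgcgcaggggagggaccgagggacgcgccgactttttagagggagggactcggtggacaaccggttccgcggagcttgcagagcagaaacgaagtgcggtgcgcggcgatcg
Ier3: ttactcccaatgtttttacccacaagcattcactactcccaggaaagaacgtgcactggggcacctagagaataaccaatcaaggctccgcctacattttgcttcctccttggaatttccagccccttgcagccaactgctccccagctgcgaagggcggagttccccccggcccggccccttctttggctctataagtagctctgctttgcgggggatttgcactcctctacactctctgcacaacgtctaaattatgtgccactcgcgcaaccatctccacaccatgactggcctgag

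Both strands were searched. TGACG was found in 4 of the 8 windows, those of Fos, Fosb, Junb and Dusp1, against 20.8% of the 32851 RefSeq promoter windows. The full palindrome TGACGTCA, which contains TGACG, was found only in Dusp1, 143 bases before the start, and in 1.79% of all windows. Among the changed members printed, the capitals appear in Fosb and Dusp1, which fell. They are absent from Jund, which also fell, and from Fosl2 and Ier3, which rose. Fos and Junb carry TGACG but did not pass the test, and Egr1 had no window. So few windows cannot link the motif to the direction of change. The AP-1 site TGANTCA was found in 0 of the 8 windows and in 7.81% of all. Only these exact forms were searched, so variants of the AP-1 and ATF sites were not counted. The Jun window, for example, holds the letters TGACATCA. A count of 0 here therefore does not show that these promoters lack such sites. The serum response element core (the CArG box) was found in 0 of the 8 and in 1.63% of all. An element further than 250 bases before the start lies outside these windows and could not be found. TATAAA, in 13.6% of all windows, was found in Fos and Junb, neither of which passed the test. It lay 33 bases before the start in Fos but at the start itself in Junb. GENCODE places the start of Junb further downstream, at chr8:84978718. GGGCGG, the GC box, was found in 6 of the 8, all but Junb and Jund, against 35.7% of all windows. The Jund window is set around a start at chr8:70697739, while GENCODE places the start of Jund at chr8:70698949, outside the window. The outermost GENCODE starts of Fosl2 (chr5:32135801) and Dusp1 (chr17:26562128) also lie outside their windows. What Jund and Fosl2 lack here is therefore uncertain, and the distance given for Dusp1 holds only for the RefSeq start used. These are letters in a window of 300 bases, not bound sites.

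The Fos proteins dimerise with Jun proteins and do not form stable dimers among themselves. Fos (ENSMUSG00000021250, chr12:85473890-85477273, GRCm38, plus strand), the founding member and the most transient after stimulation, was at 18.8, 16.0 and 20.0 CPM in the libraries alone and at 11.4, 18.5 and 10.3 CPM in coculture. Cocultured replicate 2 lay within the range of the lone fibroblasts, while the other two lay below it. The means were 18.3 ± 2.05 CPM and 13.4 ± 4.46 CPM (SD, n = 3 each), and the log2 fold change of -0.45 (SE 0.210, adjusted p = 0.129 in edgeR) did not pass. The value depended on single libraries. It was -0.75 without cocultured replicate 2, where it passed (edgeR adjusted p = 0.00591), and -0.29 without cocultured replicate 3, where it did not (edgeR adjusted p = 0.306).

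Fosb (ENSMUSG00000003545, chr7:19302721-19310045, minus strand), which encodes a full-length activator and a shorter splice form, was the scarcest member, with 63 to 98 counts per library. It was at 7.37, 6.71 and 8.28 CPM alone and at 4.68, 5.18 and 5.71 CPM in coculture, so every cocultured library lay below every library alone. The means of 7.46 ± 0.789 and 5.19 ± 0.511 CPM gave a log2 fold change of -0.52 (SE 0.159, adjusted p = 0.0295 in edgeR), a fall of 30.3% with a 95% interval from 10.6% to 45.7%. At these counts the call was not firm. It was lost in DESeq2 (adjusted p = 0.0820) and when any of 4 libraries was left out, namely alone replicates 1 and 3 and cocultured replicates 1 and 2, with edgeR adjusted p from 0.0695 to 0.107.

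Fosl1 and Fosl2 encode Fra-1 and Fra-2, which lack the strong activation domain of Fos and persist longer in growing cells. Fosl2 (ENSMUSG00000029135, chr5:32135801-32157842, plus strand), a Fos family member linked to fibrosis, was at 351.5, 331.7 and 342.1 CPM alone and at 415.4, 386.7 and 434.9 CPM in coculture. The lowest cocultured library stood above the highest library alone. The means of 341.8 ± 9.90 and 412.3 ± 24.2 CPM gave a log2 fold change of 0.27 (SE 0.0620, adjusted p = 0.00789 in edgeR), a rise of 20.7% with a 95% interval from 9.46% to 33.0%. Fosl1 (ENSMUSG00000024912, chr19:5447703-5455945, plus strand) was at 66.4, 68.2 and 68.7 CPM alone and at 68.4, 84.4 and 69.8 CPM in coculture. Its groups overlapped, with cocultured replicate 1 inside the range of the lone libraries, replicate 3 just above it and replicate 2 well above. The log2 fold change of 0.13 (SE 0.0906, adjusted p = 0.298 in edgeR) had a 95% interval from -0.08 to 0.33, which excludes a change as large as that of Egr1 but not one the size of Fosl2's, and without cocultured replicate 2 the log2 fold change was 0.03 (edgeR adjusted p = 0.793). The locus overlaps Ccdc85b on the opposite strand, which went from between 89 and 104 counts to between 194 and 259. Whether counting used strand was not stated, so reads of this pair cannot be told apart, and Fosl1 is uncertain.

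Jun family proteins pair with Fos proteins, with each other and with ATF factors. Jun (ENSMUSG00000052684, chr4:95049034-95052222, minus strand), the strongest activator of the family, was at 176.9, 180.0 and 188.9 CPM alone and at 148.1, 175.8 and 137.5 CPM in coculture. The groups did not overlap, but cocultured replicate 2 came within about 1 CPM of the lowest library alone. The log2 fold change was -0.24 (SE 0.0906, adjusted p = 0.0641 in edgeR), with a 95% interval from -0.45 to -0.04, and did not pass. Without cocultured replicate 2 it was -0.35 with an edgeR adjusted p of 0.00666. The antisense gene Junos, which shares the locus, had 12 to 21 counts per library.

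Jund (ENSMUSG00000071076, chr8:70697739-70700616, plus strand), the Jun protein that prevails in resting cells and can slow fibroblast growth, was at 163.2, 161.8 and 171.9 CPM alone and at 122.9, 138.3 and 120.9 CPM in coculture. All 3 cocultured libraries lay well below all 3 alone. The means of 165.6 ± 5.46 and 127.4 ± 9.52 CPM gave a log2 fold change of -0.38 (SE 0.0705, adjusted p = 0.00264 in edgeR), the smallest p of the 10, and a fall of 23.1% with a 95% interval from 14.1% to 31.1%. Junb (ENSMUSG00000052837, chr8:84976909-84978748, minus strand), a weaker activator that can restrain Jun, was at 186.8, 189.4 and 194.3 CPM alone and at 185.3, 207.9 and 232.9 CPM in coculture. Cocultured replicate 1 was the lowest of all 6 libraries while the other two were the highest. The log2 fold change of 0.13 (SE 0.0835, adjusted p = 0.244 in edgeR) did not pass and had a 95% interval from -0.05 to 0.32. It was 0.21 without cocultured replicate 1 (edgeR adjusted p = 0.0554) and 0.05 without cocultured replicate 3 (edgeR adjusted p = 0.583).

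Egr1 (ENSMUSG00000038418, chromosome 18), a zinc finger transcription factor induced through SRF and known to drive collagen transcription, was at 212.0, 205.2 and 214.5 CPM alone and at 110.7, 178.8 and 131.1 CPM in coculture. The lone libraries lay close together, and the cocultured ones were all lower but far apart. The means of 210.6 ± 4.79 and 140.2 ± 34.9 CPM gave a log2 fold change of -0.59 (SE 0.147, adjusted p = 0.0122 in edgeR), a fall of 33.4% with a 95% interval from 16.2% to 47.2%. Without cocultured replicate 2, the highest of its group, the log2 fold change was -0.80 (edgeR adjusted p = 0.000325).

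Ier3 (ENSMUSG00000003541, chr17:35821684-35822923, plus strand), a stress-induced modulator of apoptosis and MAPK signalling, was at 277.6, 285.6 and 285.3 CPM alone and at 306.2, 345.4 and 362.6 CPM in coculture. Each cocultured library was above each library alone. The log2 fold change was 0.26 (SE 0.0707, adjusted p = 0.0188 in edgeR), a rise of 19.5% with a 95% interval from 6.98% to 33.5%, and its edgeR adjusted p was between 0.0510 and 0.0720 when cocultured replicate 2 or any 1 library cultured alone was left out. Dusp1 (ENSMUSG00000024190, chr17:26505590-26508519, minus strand), a nuclear phosphatase that switches off p38, JNK and ERK kinases, was at 75.3, 76.5 and 88.3 CPM alone and at 73.1, 63.1 and 57.7 CPM in coculture. The groups were separated by the narrow gap between cocultured replicate 1 and alone replicate 1. The log2 fold change of -0.31 (SE 0.103, adjusted p = 0.0435 in edgeR), a fall of 19.2% with a 95% interval from 4.97% to 31.3%, was the least secure call. It was lost when any library other than cocultured replicate 1 was left out, with edgeR adjusted p from 0.0557 to 0.150, when TMM factors were left out (adjusted p = 0.0913), with the replicate block (adjusted p = 0.0741) and with limma on log2(FPKM + 1) or log2(FPKM + 0.1) (adjusted p = 0.0996 and 0.0987).

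**Figure D2:**
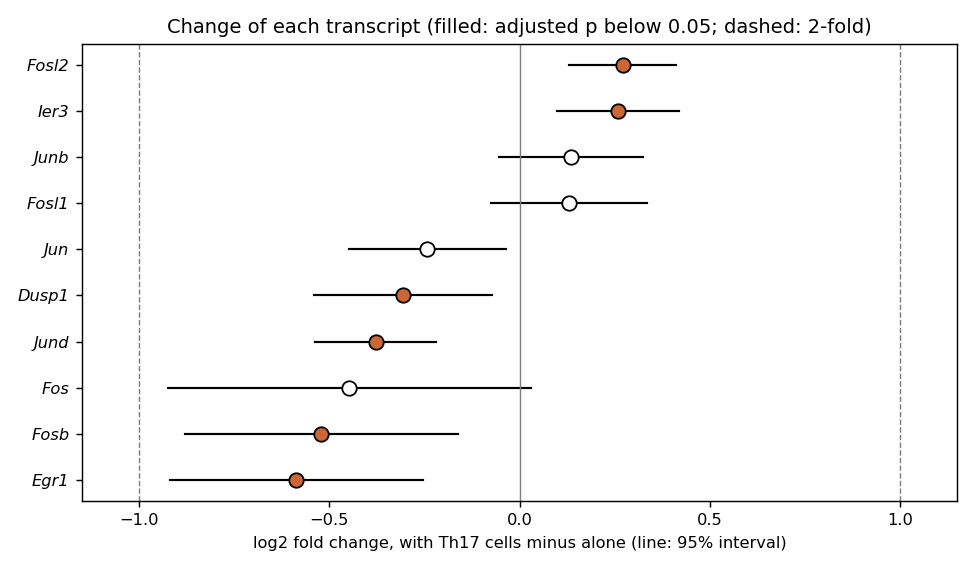
Log2 fold change of each transcript (cocultured minus alone) with its unadjusted 95% interval from edgeR, filled where the adjusted p is below 0.05, with dashed lines at a 2-fold change. The values run from -0.59 for Egr1 to 0.27 for Fosl2, and all 10 intervals lie between the dashed lines.

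Fosl2, Jund and Egr1 passed the test in all 15 alternative analyses, which changed the scaling, the filter, the tool or the unit, added a replicate block, or left out 1 library at a time. Their log2 fold changes ranged from 0.23 to 0.33, from -0.44 to -0.31 and from -0.80 to -0.44. Ier3 passed in 11 of 15, Fosb in 10 and Dusp1 in 6. Fos and Jun passed only in the analysis without cocultured replicate 2, Fosl1 and Junb in none. All 10 members kept their sign in all 15. The members that rose numbered 1 in place of 2 without any 1 of the libraries alone or without cocultured replicate 2, and those that fell 2 in place of 4 without alone replicate 1 or 3.

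The cocultured libraries differed among themselves more than the lone ones did. The coefficient of variation of CPM was higher in coculture for 9 of the 10 members, all but Fosb, against 63.7% of tested genes. Its median over the members went from 3.10% alone to 11.7% in coculture, beside 7.37% and 10.1% over all tested genes. The members were not alone in this. Among the lists described below, it was higher in coculture for 86.1% of other immediate early genes and 88.5% of AP-1 target genes. In the remaining lists this share was 50% to 69.2%. The median over other immediate early genes went from 4.93% to 12.6%. The spread was widest for Fos and Egr1, whose highest cocultured library exceeded the lowest 1.79-fold and 1.61-fold, followed by Jun at 1.28-fold. Cocultured replicate 2 was the highest of its group for Fos, Fosl1, Jun, Jund and Egr1, replicate 3 for Fosb, Fosl2, Junb and Ier3, and replicate 1 for Dusp1. The members thus did not share an order of the libraries. Over all tested genes each of the 3 cocultured libraries was the highest for 31.8% to 34.1% of genes. The difference in spread between groups was not tested.

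**Figure D3:**
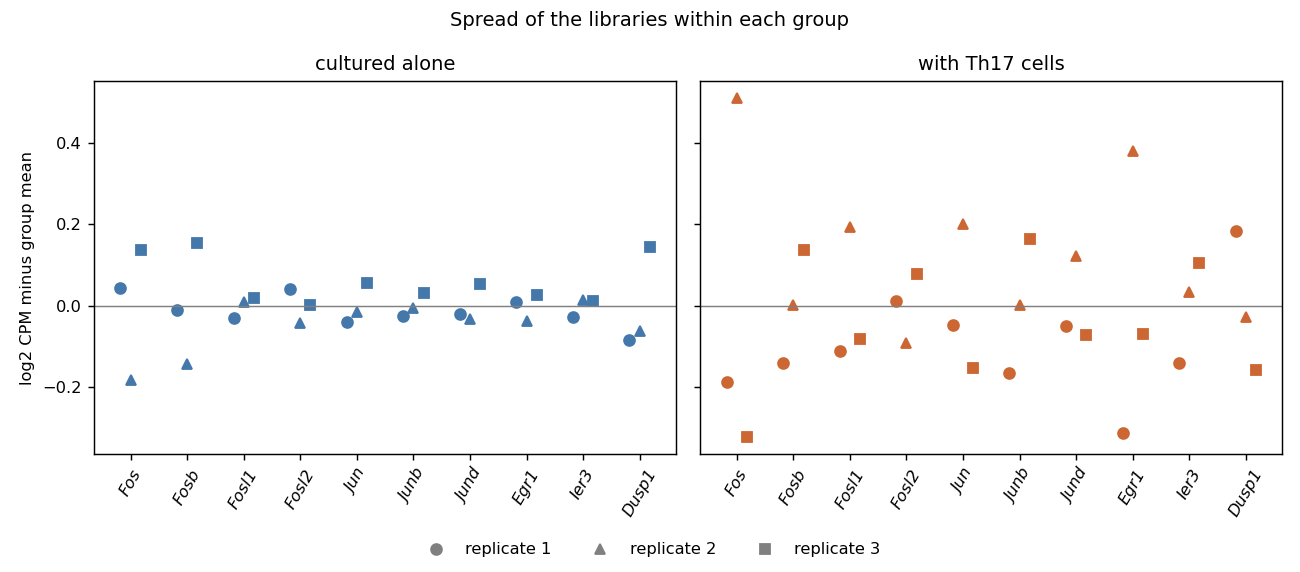
Deviation of each library's log2 CPM from its group mean, for the 10 transcripts in fibroblasts alone (left) and with Th17 cells (right), with marker shape giving the replicate. The points are closer to 0 on the left for 9 of the 10, and on the right cocultured replicate 2 (triangles) stands highest for Fos, Fosl1, Jun, Jund and Egr1.

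Levels can be compared between genes only per length. On the deposited FPKM scale (fragments scaled to gene length and library total), Ier3 stood first alone at 245 FPKM, then Junb at 101, Jund at 56.3, Jun at 55.8, Fosl1 at 38.9, Fosl2 at 28.8, Egr1 at 27.4, Dusp1 at 15.2, Fos at 4.72 and Fosb at 1.95. The gene lengths behind these values are not the lengths of the merged exons. For Fos the length recovered was 3792 bases in a locus of 3384, and for Dusp1 5142 bases in a locus of 2930, and 6.02% of 9742 genes with enough counts had a length above their locus. With merged GENCODE exon lengths, a scale added after the data had been seen, Ier3 was again first at 245 FPKM, then Jund at 97.1, Junb at 80.8, Jun at 55.8, Egr1 at 45.9, Fosl2 at 34.5, Fosl1 at 32.6, Dusp1 at 23.6, Fos at 7.61 and Fosb at 1.17. The order of Junb and Jund, that of Fosl1 and Fosl2, and the place of Egr1 therefore depend on the length used, while Ier3 at the top and Dusp1, Fos and Fosb at the bottom do not. In coculture, with merged exon lengths, Junb stood at 92.7 ± 10.9 FPKM and Jund at 78.0 ± 5.35 FPKM, and these neighbours overlapped between libraries, as did Jun at 49.3 ± 6.01 with Fosl2 at 43.6 ± 2.84, Fosl2 with Fosl1 at 37.3 ± 4.25, and Fosl1 with Egr1 at 31.9 ± 7.79 (SD, n = 3). In the lone fibroblasts no neighbours in the merged-exon order overlapped.

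The make-up of each family was also compared. Junb went from 47.4% ± 0.371 to 55.0% ± 4.13 of the Jun family on the FPKM scale and Jund from 26.4% ± 0.287 to 21.5% ± 1.46, with no overlap between groups (exact permutation test, two-sided, p = 0.1 for each, the smallest that 3 against 3 libraries allow). With merged exon lengths the Junb share differed by 7.54 percentage points beside 7.61 on the FPKM scale, and the Jund share differed by -6.05 points beside -4.88. Jun went from 26.2% ± 0.216 to 23.4% ± 2.71 (p = 0.1 in the exact permutation test, but 0.4 with merged exon lengths), and this difference of -2.73 points was -1.19 without cocultured replicate 3. In the Fos family, Fos went from 6.34% ± 0.603 to 4.18% ± 1.16 and Fosb from 2.61% ± 0.231 to 1.65% ± 0.165 (exact permutation p = 0.1 each). Fosl1 and Fosl2 made up most of the family in either group, and their shares overlapped between groups (exact permutation p = 0.8 and 0.4). The Fosl2 share differed by 3.73 points, and by 6.27 or 2.29 when cocultured replicate 2 or 3, respectively, was left out. The Fosl1 share differed by -0.608 points, by -2.54 without cocultured replicate 2 and by 0.492 without cocultured replicate 3, so its direction was not settled. The summed Fos family was 74.3 ± 1.45 FPKM alone and 85.8 ± 4.31 FPKM in coculture (exact permutation p = 0.1), and the summed Jun family 213 ± 6.35 and 210 ± 14.2 FPKM (exact permutation p = 0.8). These totals carry no TMM factors and rest on the deposited gene lengths. They were not compared on another scale, so whether either total changed is not settled. No comparison of shares in this design can reach 0.05.

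**Figure D4:**
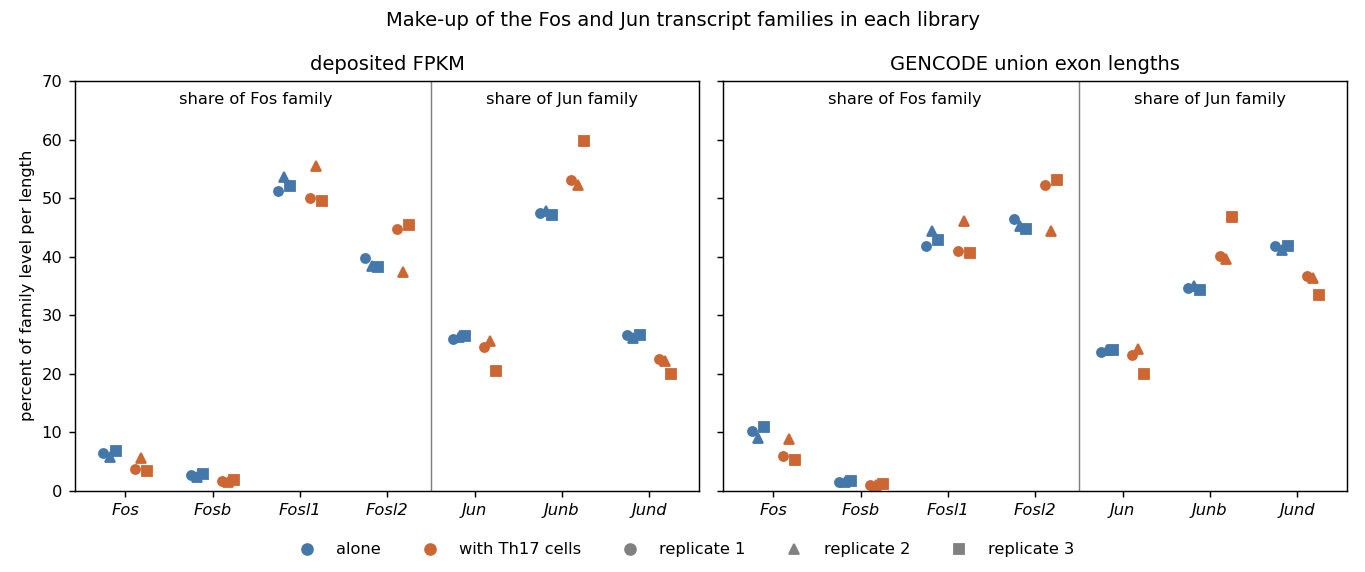
Share of each transcript in the summed level per length of the Fos family (left of the grey line) and the Jun family (right of it) in each library, on the deposited FPKM scale and with merged GENCODE exon lengths. In both panels the 3 cocultured libraries (orange) lie above the lone ones (blue) for Junb and below them for Fos, Fosb and Jund.

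Other immediate early genes, from a list of 37 of which 36 were tested, were likewise mixed. Of these, 3 rose, 8 fell and 25 did not pass, and their median log2 fold change was -0.08. Over all tested genes, beside which this and the lists below are to be read, 17.1% rose and 20% fell. Past a 2-fold change these shares were 3.87% and 7.78%. The median was -0.02 when TMM factors were left out, and 5 genes rose without cocultured replicate 1. The exception in size was Phlda1, a regulator of apoptosis, at 124 ± 8.35 CPM alone and 321 ± 20.0 CPM in coculture (log2 fold change 1.37, SE 0.0742, adjusted p = 1.03e-06 in edgeR). Errfi1, a feedback inhibitor of the EGF receptor, rose by 0.66 and Nr4a2, an orphan nuclear receptor, by 0.60 on the log2 scale. Those that fell included Gadd45b at -0.89, Klf10 at -0.85, Klf2 at -0.51 and Klf4 at -0.46. Myc, at 0.01, and Srf, at -0.07, did not pass.

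Of the other basic leucine zipper genes whose products can join AP-1 or its sites, 13 of 16 were tested, 2 rose and 6 fell, with a median log2 fold change of -0.15, which was -0.26 without alone replicate 2 and -0.28 without cocultured replicate 3, and -0.09 when TMM factors were left out. Atf3, a stress-induced repressor, fell from 13.4 ± 0.692 to 5.85 ± 2.12 CPM (log2 fold change -1.19, SE 0.238, adjusted p = 0.00386 in edgeR). Maff, a small Maf protein, rose by 0.47 and Nfe2l2 (NRF2), the main activator of antioxidant genes, by 0.36 on the log2 scale.

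The kinases and factors upstream of immediate early genes were all measured, and 9 of 35 rose while 3 fell, with a median log2 fold change of 0.10. That median was 0.02, -0.01 and 0.17 without alone replicates 1, 2 and 3, so its sign was not settled, and 5 genes fell without cocultured replicate 1. The largest rises were in the p38 branch, with Map2k6, a kinase that activates p38, going from 8.14 ± 0.711 to 30.2 ± 3.12 CPM (log2 fold change 1.89, SE 0.124, adjusted p = 3.67e-06 in edgeR) and Mapk13, which encodes p38δ, from 5.07 ± 0.459 to 20.3 ± 5.39 CPM (95% interval of the log2 fold change from 1.51 to 2.48, adjusted p = 9.38e-05 in edgeR). Nras, Map2k1 and Map3k1 fell, by 0.48, 0.25 and 0.85 on the log2 scale. Dusp1 belongs with the phosphatases and Sprouty proteins that curb these kinases, of which 16 of 17 others were tested, 5 rose and 3 fell. Dusp9, an ERK phosphatase, rose (log2 fold change 1.35, SE 0.144, adjusted p = 9.49e-05 in edgeR), as did Dusp4 by 0.92, while Spry1 fell (log2 fold change -1.54, SE 0.155, adjusted p = 6.29e-05 in edgeR).

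Some genes that textbooks name as AP-1 targets, in a list drawn up with earlier results of these data known, had fold changes well outside the range of the members. Others did not, and 6 of the 26 did not pass the test. All 26 were tested, 16 rose and 4 fell, and 10 of the rises and 1 of the falls exceeded 2-fold. Their median log2 fold change was 0.65, with a range from -1.28 to 2.97. The collagenase Mmp13 went from 48.0 ± 2.93 to 375.7 ± 56.3 CPM (log2 fold change 2.97, SE 0.112, adjusted p = 1.28e-07 in edgeR) and the protease inhibitor Tfpi2 from 56.9 ± 2.80 to 435.6 ± 46.1 CPM (log2 fold change 2.94, SE 0.0894, adjusted p = 4.56e-08 in edgeR). Ccnd1 (cyclin D1) rose by 1.98, the cytokine Il11 by 1.87 and the stromelysin Mmp10 by 1.74 on the log2 scale, while the macrophage elastase Mmp12 fell by 1.28. These genes have other regulators as well, and binding of AP-1 was not measured.

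As a check on general stress, 12 heat shock genes were examined. Of these, 3 rose (Hsph1, by 0.82 on the log2 scale, Hspd1 and Bag3), 2 fell (Hspa1a and Hspa1b, near-identical copies whose counts are uncertain) and none exceeded 2-fold. The falls numbered 0 without alone replicate 1 or 2 and 1 without alone replicate 3 or cocultured replicate 2. The median log2 fold change was 0.15, and 0.10 without alone replicate 1 or cocultured replicate 2.

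**Figure D5:**
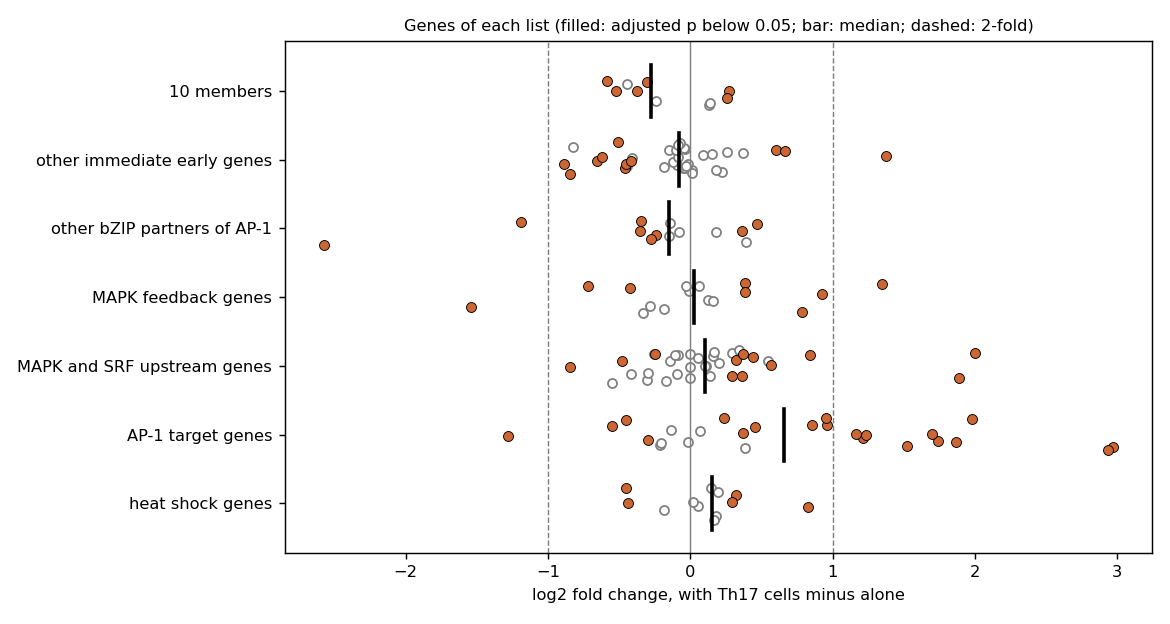
Log2 fold change (cocultured minus alone) of every tested gene of the 10 members and 6 related lists, filled where the edgeR adjusted p is below 0.05, with a bar at each list's median and dashed lines at a 2-fold change. The 10 members lie between -0.59 and 0.27, while the AP-1 target genes reach 2.97.

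The genes whose pattern over the 6 libraries was most like that of a member were found by the root mean square difference of log2 CPM, each centred on its mean. For Fosl2, the member with the highest fold change, these were Pvt1 (0.0144), Usp9x (0.0225) and Slmo2 (0.0240). For Egr1, the member with the lowest, they were Ccdc116 (0.0536), Rapgef3 (0.0599) and Proser3 (0.0768).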

How the data were processed

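RNA was sequenced from 6 libraries of primary mouse renal fibroblasts (VAHTS Universal kit, Illumina NovaSeq). Quality filtering by the authors used Seqtk, alignment HISAT2 2.0.4 and gene quantification StringTie 1.3.3b, on mm10 (GRCm38) by the submitters' processing notes. They deposited fragment counts per gene for each library, which were the unit tested here. The authors also deposited FPKM values, scaled to a gene length and the library total. Use of strand was not stated. Totals were 12050529 to 13209581 counts.

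Samples were grouped by title and columns matched by description. The filterByExpr function of edgeR 4.0.16 (R 4.3.3) with a minimum count of 10 left 13088 genes. TMM factors, glmQLFit and glmQLFTest gave p-values, which were adjusted over these genes by the Benjamini-Hochberg procedure. A gene passed with an adjusted p below 0.05, and was past the threshold with a fold change above 2 as well, as in the study's methods. SE is the log2 fold change divided by the square root of F. CPM uses TMM library sizes. Marker, pathway and member lists were chosen with earlier results of these data known, and are described by counts and medians without a set test. Named genes are the 10 members and, from each other list, up to 5 highest and 5 lowest past the threshold whose higher group averaged 50 counts or more. Genes named from a list without passing that rule were chosen after their values were seen. The likeness rule took the 3 genes closest in centred log2 CPM (prior count 2). For 59 symbols listed more than once, the most abundant entry was taken.

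Alternatives were DESeq2 1.42.0, other scalings and filters, a replicate block, limma 3.58.1 on log2(FPKM + 1) and log2(FPKM + 0.1), and leaving out each library. In a check on simulated counts (13049 genes), edgeR recovered 33 of 50 genes changed 1.5-fold and 46 of 50 changed 2-fold, with 13 unchanged genes called. The simulation gave every gene the same dispersion and changed far fewer genes than passed here. Its rates need not hold for the members. Python 3.11.15, pandas 2.3.3 and matplotlib 3.10.9 were used for tables and figures.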

Additional observations from a re-analysis of the deposited data

How the results depend on the processing

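The count of genes past the threshold was 1524 (506 higher, 1018 lower). It was 626 (224 higher, 402 lower) with limma on log2(FPKM + 1), whose pseudocount understates the change of low genes, 4856 with no fold change limit and 791 with glmTreat against a fold of 2. With no fold change limit 6 members were called. When each library was left out in turn, the members that rose numbered 1 to 2 and those that fell 2 to 4, other immediate early genes that rose 2 to 5, upstream genes that fell 3 to 5 and heat shock genes that fell 0 to 2. Heat shock genes that fell numbered 1 with DESeq2, with library size only, with no filter on low counts and with the replicate block. The share of Fosl1 differed by -0.608 percentage points, and by between -2.54 and 0.492 when single libraries were left out, so its direction is unsettled. The share of Fosb differed by -0.963 points with FPKM and by -0.685 with CPM. With merged exon lengths, added after the data had been seen, the share of Fos differed by -3.39 points and that of Fosb by -0.565. The cause of these differences was not tested. Of 150 reanalyses of the 10 members, 130 kept sign and call, 18 lost the call, 2 gained it and 0 reversed.

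Replicate numbers are shared by the groups, but same-numbered libraries did not deviate together (correlations from -0.0256 to 0.0157), and only 1 of 6 libraries correlated best with its own number. These values gave no sign of pairing by number. Whether same-numbered libraries were prepared together was not stated, and this comparison cannot exclude it. With a replicate block 1495 genes were past the threshold, and of the 6 member calls 5 were made, Dusp1 having an edgeR adjusted p of 0.0741. Fosb had the fewest counts of the members, 63 to 98 per library.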
